A study of Mus musculus with 186 samples.

Results

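The comparison described here set 9 lung libraries of bleomycin-treated mice given the ALK5 inhibitor SB525334 against 7 lung libraries of bleomycin-treated mice given vehicle, all taken on day 21. They are 16 of the 93 lung libraries of the series, chosen by tissue, day and treatment as the labels give them, and all genes were tested. The mice were female C57BL/6 animals of about 12 weeks. Bleomycin, a DNA-cleaving antibiotic used to provoke fibrosis, was injected under the skin of the back at 10 mg/kg/day, 5 times per week for 2 weeks. Oral dosing 2 times a day, with SB525334 at 30 mpk or with vehicle, began on day 12, so bleomycin injections had been running before the inhibitor started. A further 8 libraries came from mice injected with phosphate-buffered saline (PBS) and given oral vehicle, and they give the level without bleomycin. The superior lobe of the lung was sequenced as total RNA after removal of ribosomal RNA. The labels do not tie replicate numbers to mice, so p-values measure the spread between libraries. In the fit used for calls, that spread was estimated over all 93 lung libraries.

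ALK5, encoded by Tgfbr1, is the kinase of the type I receptor for TGF-beta. TGF-beta is stored in the matrix in a latent form, is released by integrins and proteases, and binds a type II receptor that activates ALK5. ALK5 then phosphorylates SMAD2 and SMAD3, which enter the nucleus with SMAD4 and switch on genes for matrix proteins, cross-linking enzymes, protease inhibitors and feedback inhibitors of the pathway itself. In the lung this route is known for driving fibroblasts towards a matrix-secreting, contractile state after injury.

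Levels are counts scaled by library size, as CPM, and fold changes are log2 values, SB525334 minus vehicle, ± standard error. A gene is said to rise or fall only where it passed a Benjamini-Hochberg adjusted p of 0.05 in edgeR, in a fit that held all 12 lung groups and a term for sequencing plate. In that fit 63 of 15647 genes passed (0.403%), 28 that rose (0.179%) and 35 that fell (0.224%), and 1136 genes had an unadjusted p below 0.05. With these 2 groups fitted alone 891 of 15045 genes passed (5.92%), 402 higher (2.67%) and 489 lower (3.25%). The median gene-wise dispersion was 0.0185 with all lung groups and 0.00581 with the 2 groups alone, so other lung groups of this series varied more than these did. Both counts are given for each gene list below, since they differ by more than 1.5 times. All 63 genes kept their direction on plate 1 (3 libraries a group) and on plate 2 (6 of SB525334 and 4 of vehicle). The plates are parts of the libraries by which these genes were chosen, so this is no independent check.

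Total counts ran from 17.49 to 26.92 M in the SB525334 group and from 17.51 to 26.95 M in the vehicle group. Markers of lung were abundant in all 16 libraries: Sftpc, a surfactant protein of alveolar type 2 cells, lay between 5323 and 8944 CPM, and Ager, a receptor of alveolar type 1 cells, between 1298 and 1656 CPM. No library of these 2 groups stood apart by the share of its 10 most abundant genes (limit 14%), by ribosomal protein genes (limit 4%), or by summed liver (limit 1000 CPM) or squamous and hair transcripts (limit 500 CPM). In other lung groups 18 libraries did, and without them 353 of 15880 genes passed (2.22%), all 63 among them. Heart muscle genes, of the kind found in pulmonary veins, were higher in 15 of 16 (median 0.41, none passing and 1 higher with the 2 groups alone), with summed levels of 853 to 1989 CPM with SB525334 and 531 to 1134 CPM with vehicle. Red blood cell transcripts varied widely. Their summed level passed 10000 CPM in 4 of the 16 libraries (SB525334 replicates 2, 6 and 9 and vehicle replicate 3). Without these 4 libraries 15 of 15727 genes passed with all lung groups (0.0954%), and 229 of 14999 with the 2 groups alone (1.53%).

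**Figure D1:**
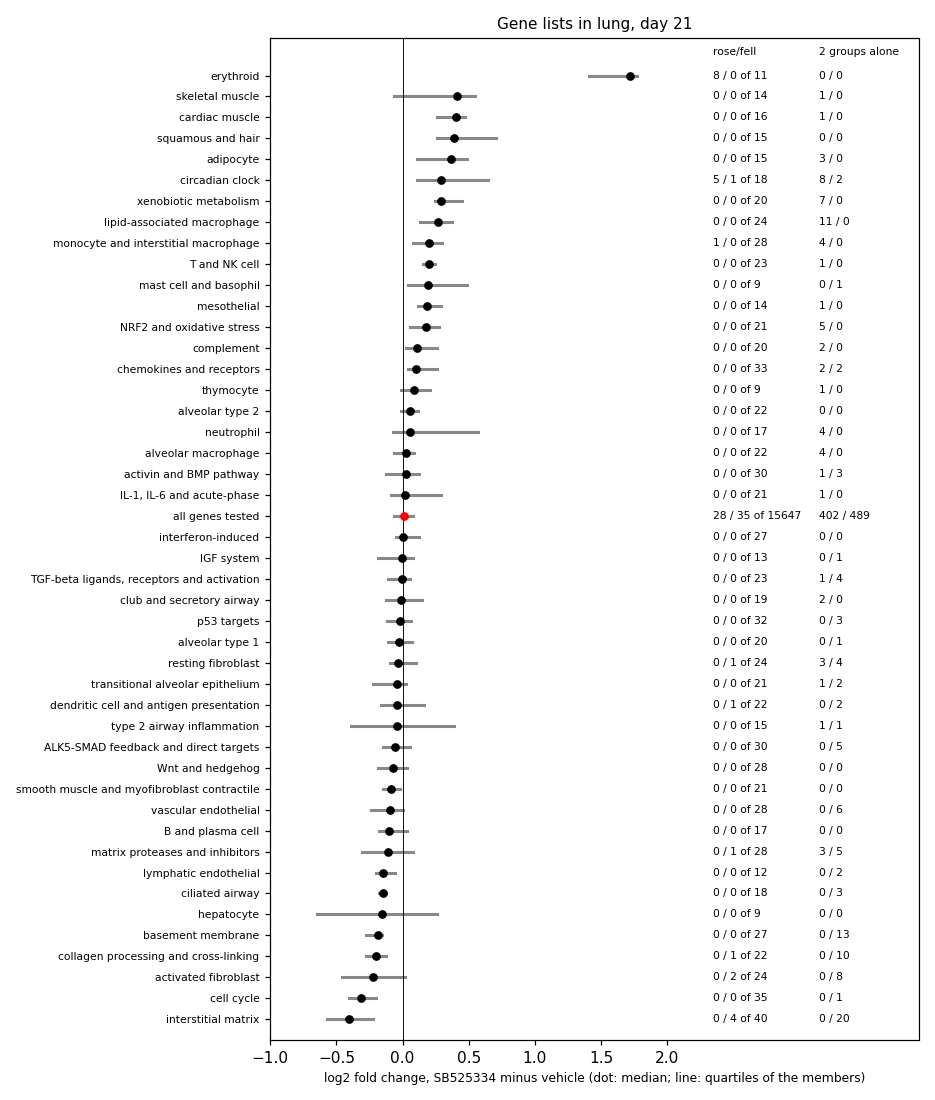
Median log2 fold change (SB525334 minus vehicle) of each gene list, with a line over the quartiles of its members and, at the right, the number of members that rose and fell in the fit of all lung groups and in the fit of the 2 groups alone. Interstitial matrix genes have the lowest median (-0.40) and erythroid genes the highest (1.72), and all genes tested, in red, lie at 0.01.

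Interstitial matrix genes, which encode the collagens, elastic fibre proteins and proteoglycans of the tissue between cells, leaned down with SB525334, with few calls. Of 40 interstitial matrix genes tested 39 had a lower level, 4 fell (Cthrc1, Mfap5, Bgn and Fbln1) and none rose, with a median of -0.40 where the median of all genes was 0.01. With the 2 groups alone 20 of 39 were lower and none higher. Without the 4 libraries high in red blood cell transcripts none of 39 passed with all lung groups (median -0.34), and 13 were lower with the 2 groups alone. The summed CPM of this list was 7267 to 10130 in the SB525334 group, 9076 to 14420 in the vehicle group and 5419 to 6514 in the PBS group. All SB525334 libraries lay above the PBS libraries, and their range overlapped that of vehicle at its lower end. In bulk RNA, fewer fibroblasts and less matrix RNA per fibroblast cannot be told apart.

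Cthrc1, a secreted protein that marks the collagen-producing fibroblasts of injured lung, was measured at 1.09 to 2.56 CPM (median 1.78) in the SB525334 group and at 2.49 to 4.63 CPM (median 3.39) in the vehicle group. All 9 SB525334 libraries lay below the vehicle mean, and the ranges met only at their ends. Cthrc1 fell (-0.97 ± 0.18, adjusted p = 0.00215), to levels below the PBS median of 2.94 CPM. Mfap5, a glycoprotein of elastic microfibrils, had 22.3 to 30.2 CPM (median 27.6) against 35.7 to 53.1 CPM (median 44.6) in the vehicle group. The groups did not overlap, whereas the SB525334 and PBS ranges did (21.4 to 27.3 CPM in PBS). Mfap5 fell by 0.70 ± 0.14 on the log2 scale (adjusted p = 0.00441). Of all genes tested, 81 of 15647 (0.518%) had CPM that did not overlap between the groups. Among the genes that fell 12 of 35 did not overlap, and among those that rose 5 of 28.

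Bgn encodes biglycan, a small proteoglycan that binds collagen fibrils and TGF-beta. It had 178 to 329 CPM (median 205) with SB525334 and 267 to 509 CPM (median 298) with vehicle, and it fell (-0.57 ± 0.13, adjusted p = 0.0115). The ranges overlapped: libraries of plate 1 had 274 to 329 CPM with SB525334 and 415 to 509 CPM with vehicle, and those of plate 2 had 178 to 209 CPM and 267 to 298 CPM. Within plate 1 its fold change was -0.62 and within plate 2 it was -0.56. Fbln1, a protein of elastic fibres and basement membranes, fell from 39.8 to 55.6 CPM (median 46.0) with vehicle to 30.3 to 40.2 CPM (median 33.0). Its fold change was -0.48 ± 0.12 (adjusted p = 0.0377), and the PBS median was 44.8 CPM.

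Eln encodes elastin, the elastic core protein of alveolar walls. Its level was 279 to 525 CPM (median 419) in the SB525334 group, 572 to 1068 CPM (median 752) in the vehicle group and 181 to 281 CPM (median 193) in the PBS group. The SB525334 and vehicle libraries did not overlap, yet Eln narrowly missed the threshold with all lung groups (-1.04 ± 0.27, adjusted p = 0.0566). With the 2 groups alone its adjusted p was 0.000697. Col1a1 and Col3a1 encode the main fibrillar collagens of scar. Col1a1 had 72.0 to 104 CPM against 110 to 219 CPM with vehicle, with no overlap (-0.78 ± 0.33, adjusted p = 0.498 with all lung groups and 0.000999 with the 2 groups alone). Col3a1 had 854 to 1397 CPM against 1409 to 2536 CPM, again with no overlap (-0.69 ± 0.24, adjusted p = 0.306 and 0.0035).

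Other matrix genes with high levels after bleomycin did not pass with all lung groups. Fn1 encodes fibronectin, on which collagen is assembled, and its median was 1348 CPM with SB525334 and 1358 CPM with vehicle, against 388 CPM in PBS lungs (fold change -0.09 ± 0.28). Tnc, the injury-associated glycoprotein tenascin C, had medians of 228 and 271 CPM in the SB525334 and vehicle groups and 36.0 CPM in PBS, and its fold change did not pass in either fit (-0.49 ± 0.33, adjusted p = 0.899 with all lung groups and 0.171 with the 2 groups alone). Postn, encoding periostin, passed with the 2 groups alone only (-0.33 ± 0.12, adjusted p = 0.367 and 0.00918). Timp1, an inhibitor of matrix proteases, had medians of 30.8 and 26.4 CPM with SB525334 and vehicle and 3.79 CPM in PBS, with a fold change of 0.05 ± 0.45.

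**Figure D2:**
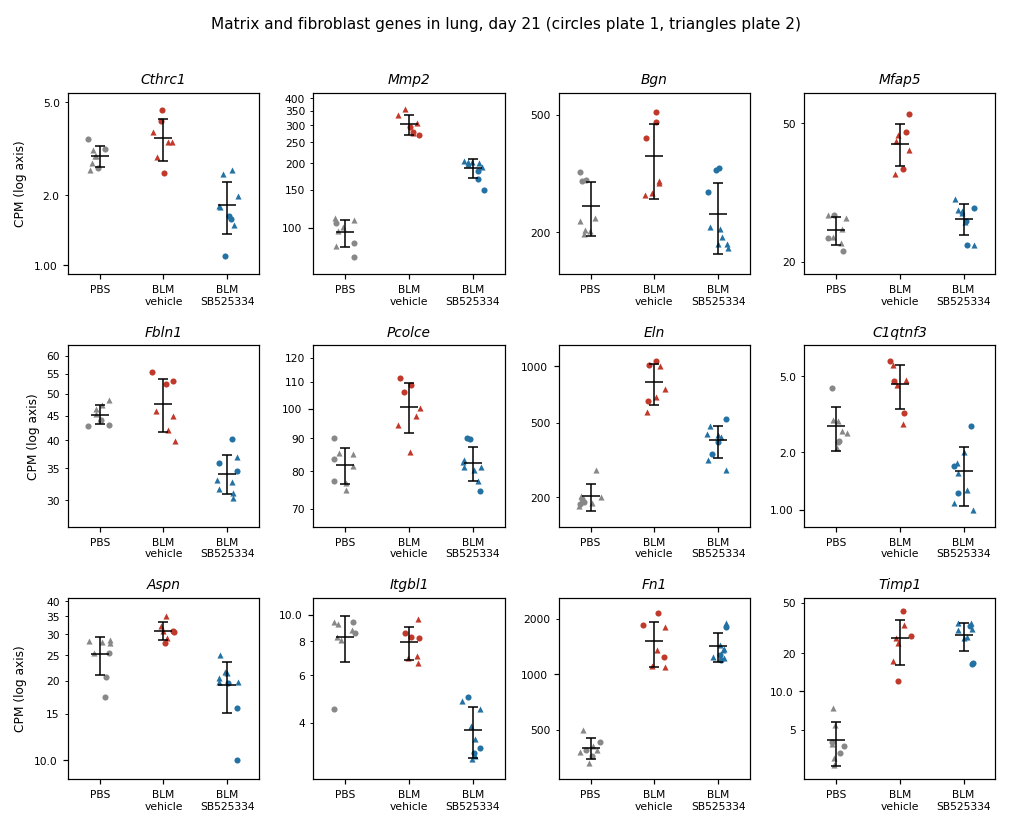
Level in CPM (log axis) of 12 matrix and fibroblast genes in every day 21 lung library of the PBS, bleomycin with vehicle (BLM vehicle) and bleomycin with SB525334 (BLM SB525334) groups, with mean and SD in black. Mfap5, Mmp2, Eln, Aspn, C1qtnf3 and Itgbl1 do not overlap between vehicle and SB525334, whereas Fn1 and Timp1 overlap.

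The 3 genes with the largest falls encode secreted proteins. C1qtnf3, a secreted C1q and TNF related protein, had 0.995 to 2.75 CPM (median 1.57) against 2.83 to 6.03 CPM (median 4.71) with vehicle. The groups did not overlap, and C1qtnf3 fell by 1.50 ± 0.30 (adjusted p = 0.00441), below its PBS median of 2.57 CPM. Itgbl1, a secreted protein with integrin beta-like repeats, had 2.94 to 5.00 CPM against 6.63 to 9.65 CPM with vehicle and fell by 1.09 ± 0.19 (adjusted p = 0.000367). Its PBS median was 8.68 CPM beside a vehicle median of 8.26 CPM, so the SB525334 median of 3.48 CPM was the lowest of the 3 groups. Spon2, the matrix protein spondin 2, had 11.3 to 25.05 CPM against 29.1 to 51.4 CPM with vehicle and fell by 1.08 ± 0.22 (adjusted p = 0.00441), with a vehicle median of 36.5 CPM and a PBS median of 31.1 CPM.

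Mmp2, the gelatinase that fibroblasts secrete, was the only call among 28 matrix proteases and inhibitors (median -0.11), of which 3 were higher and 5 lower with the 2 groups alone. It had 149.7 to 205 CPM (median 199) with SB525334 and 271 to 356 CPM (median 295) with vehicle, beside 73.2 to 111 CPM (median 98.7) in PBS lungs. The 3 groups were fully separate, with SB525334 between the others (fold change -0.71 ± 0.16, adjusted p = 0.0128 with all lung groups and 7.04e-07 with the 2 groups alone). Of 24 activated fibroblast genes 2 fell and none rose (median -0.22), and 8 were lower with the 2 groups alone. The 2 were Cthrc1 and Aspn. Without the 4 libraries high in red blood cell transcripts no member of either list passed with all lung groups (medians -0.11 and -0.16), and with the 2 groups alone 1 protease or inhibitor gene was higher and 3 were lower, beside 3 lower activated fibroblast genes. Mmp2 then had a fold change of -0.68 (adjusted p = 0.185, and 0.000215 with the 2 groups alone).

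Further genes fell, of which all but Aspn and Clec11a were chosen after their values were seen. Aspn, the small leucine-rich proteoglycan asporin, had 10.1 to 25.1 CPM against 27.7 to 35.2 CPM with vehicle, without overlap (-0.73 ± 0.15, adjusted p = 0.00542). Clec11a, a secreted growth factor of stromal cells, had 4.81 to 7.45 CPM against 9.41 to 16.2 CPM, also without overlap (-0.93 ± 0.16, adjusted p = 0.000359). The metalloproteases Adamts9 (-0.60 ± 0.14, adjusted p = 0.0243) and Adamts17 (-0.76 ± 0.17, adjusted p = 0.0128) fell without overlap. Nrep, a small protein found in regenerating and fibrotic tissue, fell by 0.65 ± 0.13 (adjusted p = 0.00441). The refilins, which bind filamin, fell as well: Rflnb by 0.35 ± 0.07 (adjusted p = 0.00257) and Rflna by 0.67 ± 0.15 (adjusted p = 0.0144).

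Enzymes that process and cross-link collagen shifted by less. Of 22 tested 21 were lower with SB525334, 1 fell and none rose (median -0.20), and 10 were lower with the 2 groups alone. The gene that fell was Pcolce, which enhances trimming of procollagen. Its level was 74.4 to 89.95 CPM (median 81.2) with SB525334 and 85.7 to 112 CPM (median 100.2) with vehicle, against a PBS median of 82.5 CPM (-0.27 ± 0.07, adjusted p = 0.0497). Pcolce passed in 9 of 30 alternative fits. Without the 4 libraries high in red blood cell transcripts no gene of this list passed with all lung groups (median -0.20), and 4 were lower with the 2 groups alone. Serpinh1, the collagen chaperone HSP47, had a fold change of -0.44 ± 0.13 (adjusted p = 0.105 and, with the 2 groups alone, 0.00249), and Adamts2, which removes the amino propeptide of collagen, -0.53 ± 0.18 (adjusted p = 0.199 and 0.00212).

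All 27 basement membrane genes tested had a lower level with SB525334 (median -0.18), none of which passed with all lung groups, while 13 were lower with the 2 groups alone. That number was 5 without the 4 libraries high in red blood cell transcripts (median -0.18). Their summed CPM was 6208 to 7838 with SB525334, 6662 to 9370 with vehicle and 5510 to 6217 in PBS lungs. Col4a1, the type IV collagen chain of the basement membrane, had 1202 to 1742 CPM against 1446 to 2502 CPM (-0.51 ± 0.16, adjusted p = 0.17 and 0.00233). Lama2 and Lamb1 encode laminin chains. Lama2 lay at 183 to 209 CPM against 218 to 257 CPM with vehicle, with no overlap (-0.29 ± 0.10, adjusted p = 0.187 and 0.000284). Lamb1 lay at 177 to 208 CPM against 212 to 252 CPM, also with no overlap (-0.29 ± 0.10, adjusted p = 0.236 and 0.000194).

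Contractile genes of smooth muscle and myofibroblasts gave no call in either fit (21 tested, median -0.09). Acta2, the alpha smooth muscle actin by which myofibroblasts are recognised, had medians of 162.5 CPM with SB525334, 169.5 CPM with vehicle and 180 CPM in PBS (fold change -0.11 ± 0.12). Among 24 resting fibroblast genes the median was -0.04 and 1 fell, while 3 were higher and 4 lower with the 2 groups alone. The gene that fell was Pi16, which marks adventitial fibroblasts (9.75 to 13.9 CPM against 13.1 to 25.2 CPM, -0.58 ± 0.13, adjusted p = 0.00981). Inmt, a methyltransferase of resting alveolar fibroblasts, was at 456.5 to 883 CPM with SB525334, 240 to 559.5 CPM with vehicle and 1046 to 1355 CPM in PBS (0.67 ± 0.25, adjusted p = 0.334 and 0.0367). Without the 4 libraries high in red blood cell transcripts no resting fibroblast gene passed with all lung groups. With the 2 groups alone 2 were then lower and none higher.

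Direct targets and feedback genes of the ALK5 and SMAD pathway had no call with all lung groups. Of 30 tested none rose or fell (median -0.06), and 5 were lower and none higher with the 2 groups alone (Ltbp2, Adam12, Ltbp3, Angptl4 and Lrrc15, all those that passed). Without the 4 libraries high in red blood cell transcripts none of the 30 passed in either fit. The feedback inhibitor Smad7 (0.06 ± 0.12), the SMAD corepressor Skil (0.10 ± 0.08) and Pmepa1, which sequesters SMADs (-0.05 ± 0.13), did not pass in either fit.

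Ccn2, the connective tissue growth factor CTGF, had medians of 283 CPM with SB525334 and 295 CPM with vehicle against 113 CPM in PBS (-0.06 ± 0.14). Tgfbi, a matrix protein named for its induction by TGF-beta, had medians of 165 and 146 CPM (0.14 ± 0.14). By contrast Ltbp2, a latent TGF-beta binding protein of microfibrils, had medians of 113 and 266 CPM (-0.66 ± 0.26, adjusted p = 0.421 and 0.0174), and Adam12, a metalloprotease of activated mesenchymal cells, of 9.45 and 15.6 CPM (-0.76 ± 0.34, adjusted p = 0.572 and 0.0173). These ranges overlapped, since vehicle libraries spread from 119 to 333 CPM for Ltbp2 and from 7.91 to 18.9 CPM for Adam12. With the 2 groups alone and without the 4 libraries high in red blood cell transcripts, neither passed (edgeR adjusted p = 0.136 and 0.126).

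Ligands, receptors and activators of TGF-beta gave no call among 23 tested with all lung groups (median -0.01), and 1 higher and 4 lower with the 2 groups alone. Tgfbr1, the transcript of ALK5 itself, had 181 to 251 CPM (median 234) with SB525334 and 167 to 238 CPM (median 218) with vehicle, with overlap (0.10 ± 0.08, adjusted p = 0.924). SB525334 acts on the kinase, so the level of this transcript does not check the labels. Tgfb3, a TGF-beta ligand, had 35.6 to 41.1 CPM with SB525334 and 42.3 to 58.5 CPM with vehicle, with no overlap (-0.35 ± 0.11, adjusted p = 0.167 and 0.00525). Tgfbr3, the coreceptor betaglycan, was the higher member (0.30 ± 0.12, adjusted p = 0.445 and 0.0454). Of 30 activin and BMP genes none passed with all lung groups (median 0.02), and 1 was higher and 3 lower with the 2 groups alone. The activin subunit Inhbb had a fold change of -0.30 ± 0.11 (adjusted p = 0.37 and 0.00813) and Inhba, another subunit, of 0.14 ± 0.25 at a median of only 1.62 CPM. Without the 4 libraries high in red blood cell transcripts no TGF-beta, activin or BMP gene of these lists passed in either fit.

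Genes of the circadian clock were prominent among the calls. The clock is a loop in which the activators BMAL1 (Arntl) and CLOCK drive their own repressors through E-boxes, with a further loop of REV-ERB and ROR factors acting on Arntl, and with the PAR bZIP factors Dbp, Hlf and Tef acting through D-boxes. Of 18 clock genes tested 5 rose (Dbp, Hlf, Per3, Tef and Nr1d2) and 1 fell (Arntl), with a median of 0.29, and 8 were higher and 2 lower with the 2 groups alone. Without the 4 libraries high in red blood cell transcripts 4 rose and 1 fell, and with the 2 groups alone 5 were higher and 1 lower.

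The promoters of 3 of these genes are shown because each holds the element through which the loop named above acts; the genes were chosen after their values were seen. Sequences are from RefSeq (build GRCm38.p6), cover 250 bases before to 50 after an annotated start, and have matches on either strand in capitals. Per3 (minus strand, chr4:151044616-151044915) holds the D-box TTATGTAA at positions -205 and -158 from the start, a motif found in 0.938% of 32851 such promoters.
Per3: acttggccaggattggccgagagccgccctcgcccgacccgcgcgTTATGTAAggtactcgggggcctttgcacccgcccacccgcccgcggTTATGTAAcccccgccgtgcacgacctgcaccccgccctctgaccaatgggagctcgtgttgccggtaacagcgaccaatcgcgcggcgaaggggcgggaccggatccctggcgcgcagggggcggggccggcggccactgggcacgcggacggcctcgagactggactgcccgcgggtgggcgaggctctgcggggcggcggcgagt
Arntl (plus strand, chr7:113207261-113207560) holds a ROR element from position 27, in capitals below. Its exact letters are found in 0.0213% of promoters, and other forms of the element were not counted. The window of another annotated Arntl start (chr7:113207215-113207514) holds no match.
Arntl: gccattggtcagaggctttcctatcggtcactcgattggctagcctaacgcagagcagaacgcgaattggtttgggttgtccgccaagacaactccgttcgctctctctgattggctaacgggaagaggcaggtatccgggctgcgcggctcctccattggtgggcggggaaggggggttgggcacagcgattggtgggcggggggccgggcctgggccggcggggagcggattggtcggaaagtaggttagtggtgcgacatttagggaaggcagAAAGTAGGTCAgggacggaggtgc
Tef (plus strand, chr15:81802423-81802722) holds the E-box CACGTG at position -127, found in 7.15% of promoters. The window of another annotated Tef start (chr15:81811164-81811463) holds it at position -138.
Tef: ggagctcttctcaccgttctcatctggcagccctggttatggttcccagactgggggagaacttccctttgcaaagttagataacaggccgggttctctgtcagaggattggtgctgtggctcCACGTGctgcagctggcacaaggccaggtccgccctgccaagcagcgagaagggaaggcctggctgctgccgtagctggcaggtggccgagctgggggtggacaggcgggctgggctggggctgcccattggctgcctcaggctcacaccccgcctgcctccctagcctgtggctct
A match describes these letters only. Of the genes that fell, 25 of 35 had a promoter in this table, and 4 of the 25 held the SMAD element CAGACA, which 21% of all promoters hold. The E-box was held by 2 of the 25, the ROR element by 1 and the D-box by 0. Of the 28 genes that rose 21 had a promoter, of which 4 held the E-box, 1 the D-box and 0 the ROR element.

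Dbp, a clock output factor that binds D-boxes, had 29.3 to 61.5 CPM (median 41.8) with SB525334 and 8.15 to 33.5 CPM (median 13.8) with vehicle. The overlap came from vehicle replicate 2, at 33.5 CPM. Dbp rose by 1.52 ± 0.25 (adjusted p = 0.000359). In PBS lungs it lay at 10.6 to 33.7 CPM (median 26.1). Hlf, a related factor, had 9.69 to 21.1 CPM (median 13.6) against 4.40 to 9.81 CPM (median 5.23) and rose (1.20 ± 0.22, adjusted p = 0.000605), to about the PBS level (median 14.5 CPM).

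Per3, a period gene whose D-box promoter is shown above, had 82.7 to 134 CPM (median 98.9) against 36.3 to 91.7 CPM (median 53.3) and rose by 0.90 ± 0.15 (adjusted p = 0.000359). Tef rose by 0.67 ± 0.14 (244 to 430 CPM against 137 to 302 CPM, adjusted p = 0.00441). Nr1d2, the repressor REV-ERB beta, rose by 0.65 ± 0.15 (168 to 219 CPM against 76.3 to 184 CPM, adjusted p = 0.0129). Arntl moved the other way, from 16.4 to 32.3 CPM (median 27.8) with vehicle to 11.9 to 20.2 CPM (median 14.9), and fell by 0.82 ± 0.14 (adjusted p = 0.000359). PBS lungs had still more (32.6 to 52.6 CPM).

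For each of these 6 genes all 9 SB525334 libraries lay on the same side of the vehicle mean, and vehicle replicate 2 lay nearest to the SB525334 libraries for Dbp and Arntl. Dbp, Hlf, Per3 and Arntl passed in 29 of 30 alternative fits, failing only on plate 1 alone, where no gene passed. Per2 and Nr1d1, chosen after their values were seen, did not reach the threshold with all lung groups. Per2, a further period gene, had a fold change of 0.64 ± 0.17 (adjusted p = 0.0566 and, with the 2 groups alone, 0.0173), and Nr1d1, encoding REV-ERB alpha, of 0.43 ± 0.20 (adjusted p = 0.609 and 0.0651). The time of day at which lungs were taken is not in the labels, so a difference in sampling time and an effect of dosing cannot be told apart. Some clock genes also differed on day 14 between groups without SB525334, where the bleomycin minus PBS value was -0.98 for Dbp (adjusted p = 0.000425) and -1.61 for Nr1d1 (adjusted p = 1.93e-10). Hlf, Per3, Tef and Nr1d2 were lower there as well (-0.97, -0.39, -0.63 and -0.60, each with an edgeR adjusted p below 0.05). Arntl did not pass on day 14 (-0.16, edgeR adjusted p = 0.361).

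**Figure D3:**
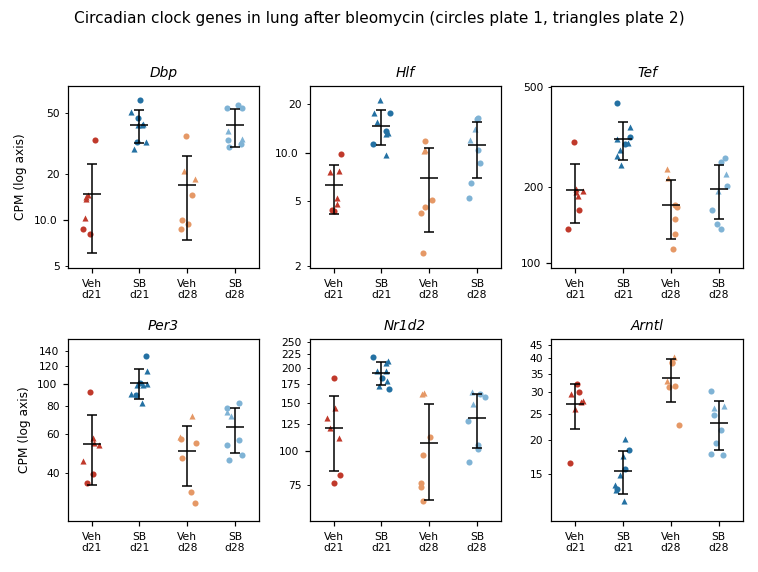
Level in CPM (log axis) of 6 circadian clock genes in every lung library after bleomycin, with vehicle (Veh) or SB525334 (SB) on days 21 and 28, with mean and SD in black. On day 21 the SB525334 libraries lie above nearly all vehicle libraries for Dbp, Hlf, Tef, Per3 and Nr1d2 and below them for Arntl, and the day 28 libraries spread more widely.

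Red blood cell genes had the largest rises. Of 11 erythroid genes tested 8 rose and none fell (median 1.72), but none passed with the 2 groups alone. Hba-a2, an alpha globin, had 934 to 12545 CPM (median 1270) with SB525334 and 443 to 2465 CPM (median 671) with vehicle (1.95 ± 0.48, adjusted p = 0.0305, and 0.144 with the 2 groups alone). Alas2, the erythroid enzyme of heme synthesis, had 66.2 to 789 CPM against 31.1 to 180 CPM (1.72 ± 0.37, adjusted p = 0.00853 and 0.14). Few libraries held the high values. The summed level was 52760 CPM in SB525334 replicate 6 and 23280 CPM in replicate 9, while the other SB525334 libraries lay between 4539 and 11320 CPM, the vehicle libraries between 2318 and 11460 CPM and the PBS libraries between 4181 and 13930 CPM. Without the 4 high libraries none passed with all lung groups (median 0.74), and 6 of 11 were higher with the 2 groups alone. Tent5c, a poly(A) polymerase outside the list, had 90.8 to 482 CPM against 66.6 to 169 CPM and rose (0.95 ± 0.20, adjusted p = 0.00441, and 0.154 with the 2 groups alone). Without the 4 high libraries its fold change was 0.41 (adjusted p = 0.496, and 0.0327 with the 2 groups alone). It was 0.24 on plate 1 and 1.26 on plate 2, which held SB525334 replicates 6 and 9.

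**Figure D4:**
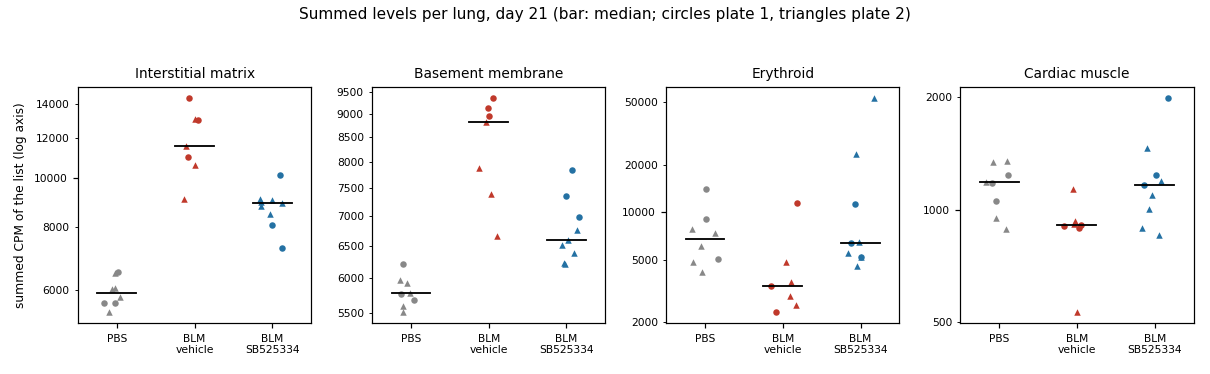
Summed CPM (log axis) of 4 gene lists in each day 21 lung library of the PBS, vehicle and SB525334 groups, with the median as a bar. For interstitial matrix and basement membrane genes the SB525334 median (8939 and 6584 CPM) lies between those of PBS and vehicle, and 2 SB525334 libraries stand far above the rest for erythroid genes.

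Of 3 lists of macrophage genes 2 leaned upwards, with few calls. The 22 alveolar macrophage genes did not (12 higher and 10 lower, median 0.03), with no call and 4 higher with the 2 groups alone. None of these 22 passed in either fit without the 4 libraries high in red blood cell transcripts. Of 28 monocyte and interstitial macrophage genes 24 had a higher level with SB525334 (median 0.20), 1 rose, and 4 were higher with the 2 groups alone. The gene that rose was F13a1, the coagulation factor XIII subunit found in monocytes and tissue macrophages, with 38.4 to 67.9 CPM (median 50.0) against 22.8 to 39.1 CPM (median 32.8) with vehicle (0.73 ± 0.16, adjusted p = 0.0115). F13a1 had a fold change of 0.76 without the 4 libraries high in red blood cell transcripts (adjusted p = 0.0908, and 0.0231 with the 2 groups alone), and the list median was 0.21. Folr2, a folate receptor of resident perivascular macrophages, had 5.76 to 9.79 CPM against 2.22 to 6.69 CPM (0.99 ± 0.29, adjusted p = 0.105 and 0.0089), and the scavenger receptor Cd163 13.2 to 17.9 CPM against 8.26 to 12.7 CPM, with no overlap (0.52 ± 0.17, adjusted p = 0.22 and 0.00288).

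Lipid-associated macrophages, which gather in injured lung, express lysosomal and lipid-handling genes. Of 24 such genes 21 were higher with SB525334 (median 0.27), none passed with all lung groups, and 11 were higher with the 2 groups alone. Mmp12, the macrophage elastase, had 143 to 482 CPM (median 342) with SB525334, 96.2 to 256 CPM (median 151) with vehicle and 3.53 to 8.38 CPM in PBS. The groups overlapped, since SB525334 replicate 3 was at 143 CPM (1.12 ± 0.40, adjusted p = 0.306 and 0.0063). Pla2g7, a phospholipase of foamy macrophages, had medians of 57.8 and 32.2 CPM (0.69 ± 0.24, adjusted p = 0.256 and 0.00954). Spp1, encoding osteopontin and often measured as a fibrosis marker, leaned the other way (medians 885 and 1106 CPM, -0.50 ± 0.30, adjusted p = 0.82 and 0.111). Without the 4 libraries high in red blood cell transcripts 1 of 24 was higher with the 2 groups alone, while the median was 0.24 both without them and with all 16 libraries in that fit.

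Cd209a, a lectin of monocyte-derived dendritic cells, fell without overlap (2.69 to 5.21 CPM against 5.43 to 8.87 CPM, -0.98 ± 0.20, adjusted p = 0.00497). It was the only call among 22 dendritic cell and antigen presentation genes with all lung groups (median -0.04), and 2 were lower with the 2 groups alone. Neutrophil genes had no call among 17 (median 0.05, and 4 higher with the 2 groups alone), among them S100a9, a calcium-binding protein abundant in neutrophils (0.81 ± 0.44, adjusted p = 0.764 and 0.0199). All 23 T and NK cell genes had a higher level (median 0.20), with no call and 1 with the 2 groups alone. B and plasma cell genes (median -0.10) and interferon-induced genes (median 0.00) had none in either fit. Without the 4 libraries high in red blood cell transcripts no neutrophil or T and NK cell gene passed in either fit. No dendritic cell gene then passed with all lung groups, and 1 was lower with the 2 groups alone.

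Epithelial lists had no calls with all lung groups. None of 22 alveolar type 2, 20 alveolar type 1, 21 transitional alveolar, 19 club and 18 ciliated cell genes passed with all lung groups, with medians of 0.05, -0.02, -0.04, -0.01 and -0.15. With the 2 groups alone 1 alveolar type 1 gene and 3 ciliated cell genes were lower and 2 club cell genes were higher. Transitional alveolar epithelium is the intermediate state in which type 2 cells become type 1 cells after injury, and with the 2 groups alone 1 of its genes was higher and 2 were lower. In that fit without the 4 libraries high in red blood cell transcripts, 1 club cell gene was higher and 1 transitional gene lower. No alveolar type 1 or ciliated cell gene passed there. Cdkn1a, the p53 target p21, had 72.2 to 100.5 CPM (median 84.7) with SB525334 and 86.6 to 128 CPM (median 111) with vehicle, against 19.8 to 41.5 CPM in PBS (-0.34 ± 0.17, adjusted p = 0.671 and 0.00145). Tnfrsf10b, a death receptor that p53 induces, had a fold change of -0.37 ± 0.15 (adjusted p = 0.434 and 0.00403). They were 2 of 3 p53 targets of 32 that were lower with the 2 groups alone, and none of the 32 passed with all lung groups. Without the same 4 libraries 1 of the 32 was lower with the 2 groups alone.

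Of 35 cell cycle genes 34 were lower with SB525334 (median -0.31), but none passed with all lung groups and 1, the checkpoint kinase Bub1, with the 2 groups alone (-0.49 ± 0.20, adjusted p = 0.488 and 0.0399). Of all genes 3.25% were lower with the 2 groups alone. No cell cycle gene passed in either fit without the 4 libraries high in red blood cell transcripts. Mki67, the proliferation marker, had 60.1 to 155 CPM against 90.3 to 181 CPM with vehicle (-0.42 ± 0.29, adjusted p = 0.911 and 0.132). Vascular endothelial genes leaned down (21 of 28, median -0.10, none passing, 6 lower with the 2 groups alone), among them the apelin receptor Aplnr (-0.57 ± 0.18, adjusted p = 0.175 and 0.0292). Genes of xenobiotic metabolism leaned up (18 of 20, median 0.29, none passing, 7 higher with the 2 groups alone), among them Fmo2, the flavin monooxygenase of lung (0.45 ± 0.14, adjusted p = 0.17 and 0.0353). All 21 NRF2 and oxidative stress genes were higher (median 0.18), none passing and 5 with the 2 groups alone. Gsta3, a glutathione transferase of club cells, had 91.9 to 132 CPM against 45.7 to 82.6 CPM with vehicle, with no overlap, and 104 to 129 CPM in PBS (0.76 ± 0.22, adjusted p = 0.105 and 0.00174). Without the 4 libraries high in red blood cell transcripts, no gene of these lists passed with all lung groups. With the 2 groups alone 2 endothelial genes were then lower, and 2 xenobiotic genes and 1 NRF2 gene were higher. Aplnr and Fmo2 did not pass there (edgeR adjusted p = 0.1385 and 0.112), while Gsta3 did (0.0211).

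A few genes that rose belong to none of these groups and were chosen after their values were seen. Fbxo32, the ubiquitin ligase atrogin 1, had 42.3 to 53.3 CPM against 28.7 to 41.6 CPM, with no overlap (0.49 ± 0.10, adjusted p = 0.00441). Tspan4, a tetraspanin, had 39.5 to 52.1 CPM against 28.05 to 39.3 CPM, with no overlap (0.49 ± 0.11, adjusted p = 0.0135). Galnt9, a glycosyltransferase, rose from a low level (1.78 to 3.70 CPM against 0.548 to 1.63 CPM, 1.10 ± 0.28, adjusted p = 0.0497).

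To follow genes that differed after bleomycin, those that passed with at least a 2-fold change between bleomycin and PBS on day 14 were taken. The day 14 comparison shares no libraries with the day 21 one, and 619 genes were raised (3.96% of those tested) and 487 lowered (3.11%). Of the day 14 libraries, 2 of 8 with PBS and 0 of 8 with bleomycin were among the 18 that stand apart. Of the 619 raised genes 2 rose and 4 fell under SB525334, with a median of -0.06, and 56.2% were lower where 45.4% of all genes were. The raised genes that fell were Mmp2, Nrcam (a neural cell adhesion molecule), Tmem252 and Ccdc184, and those that rose were F13a1 and Galnt9. Of the 487 lowered genes none rose and 2 fell, C1qtnf3 and Adamts17, with a median of 0.16. With the 2 groups alone 40 of 583 raised genes were higher and 36 lower, and 12 of 317 lowered genes were higher and 6 lower. Of all genes 0.179% rose and 0.224% fell with all lung groups, and with the 2 groups alone 2.67% were higher and 3.25% lower.

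On day 28 SB525334 was compared with vehicle in other lungs, 8 and 7 libraries, and 1310 of 15647 genes passed (8.37%). Of the 63 genes of day 21, 59 had the same sign there and 27 passed, 23 of the falls and 4 of the rises, and none passed in the opposite direction. Itgbl1 (-1.50 ± 0.21, adjusted p = 1.08e-06), Bgn (-0.84 ± 0.13, adjusted p = 1.15e-05), Aspn (-0.97 ± 0.16, adjusted p = 4.93e-05) and Mmp2 (-0.86 ± 0.17, adjusted p = 0.000433) fell on day 28 too, as did Arntl (-0.55 ± 0.14, adjusted p = 0.00871), while Dbp rose (1.34 ± 0.26, adjusted p = 0.000459). Of these day 28 libraries 6 of 8 with SB525334 and 4 of 7 with vehicle were among the 18 that stand apart. Without them 135 genes passed (0.85%), 49 of the 63 had the same sign and 2 passed. The difference between the days passed for 27 of 15647 genes (0.173%), among which Rflna was the only one of the 63 (0.96 ± 0.22, adjusted p = 0.0339). Rflna fell on day 21 and had a fold change of 0.29 ± 0.16 on day 28. Squamous and skeletal muscle genes were among the 27, with differences of -11.4 for Krt4 and -5.12 for Tnnt3, while Akt1s1 was 0.53 higher on day 28. Without the 18 libraries Rflna alone passed (1.475 ± 0.28, edgeR adjusted p = 0.0208).

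**Figure D5:**
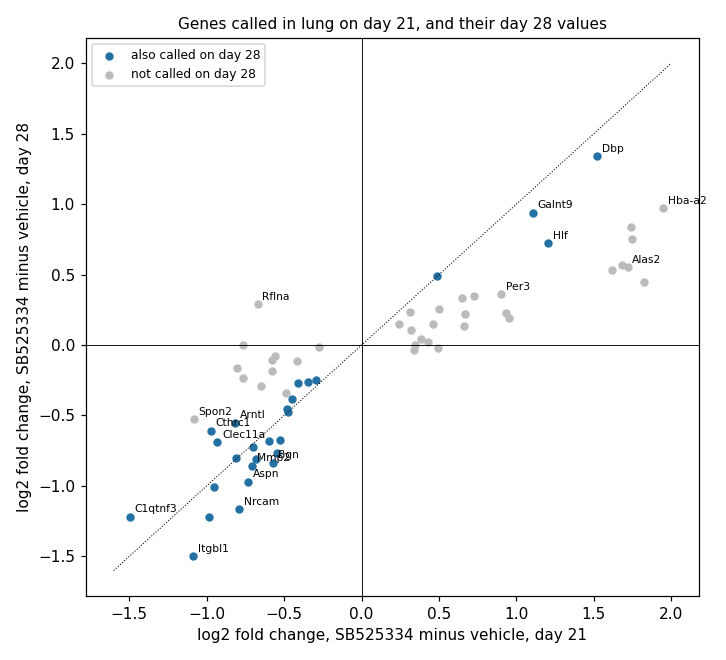
Log2 fold change (SB525334 minus vehicle) in lung on day 28 against day 21 for the 63 genes that passed on day 21, in blue where they also passed on day 28, with a dotted line of equal values. Itgbl1 lies at -1.09 on day 21 and -1.50 on day 28, all 28 rises lie below the line, and Rflna lies on the other side of 0 on day 28. The genes were chosen by their day 21 values, which by itself favours smaller changes on day 28. Of the 63 only Rflna passed the test of the difference between the days.

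In skin of the day 21 groups 1872 of 15825 genes passed (11.8%). Of the 63 lung genes 62 were tested there, 46 had the same sign and 16 passed in the same direction, 13 falls and 3 rises. Itgbl1 fell in skin by 1.06 (adjusted p = 0.000367), Bgn by 0.69 (adjusted p = 0.00379), Aspn by 1.17 (adjusted p = 0.00251) and C1qtnf3 by 1.27 (adjusted p = 0.0379), while Dbp (0.95, adjusted p = 0.014), Per3 (0.68, adjusted p = 0.00263) and Tef (0.52, adjusted p = 0.0146) rose. The skin and lung effects differed for 317 of 16585 genes (1.91%), 8 of the 63 among them. Fbxo32, Galnt9, Tent5c, Fech, Flvcr1 and Zfp346 were among those with a higher fold change in lung, and Trp53i11 had a lower one.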

How the data were processed

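RNA levels were measured in 93 lung libraries of 12 groups, 16 of them compared here. The authors deposited RSEM expected counts per gene and log2 CPM values from edgeR, on GRCm38, per the submitters' processing notes, without versions. Expected counts (83.7% whole) were rounded and filtered by expression per group. They were scaled by the trimmed mean of M values and fitted with edgeR 4.0.16 (quasi-likelihood F test, R 4.3.3) with plate as a term and Benjamini-Hochberg adjustment. Of 22095 gene IDs 21852 had a name. Standard errors were taken from the fold change and the F statistic. On simulated counts, 91 of 100 shifts of 2-fold and 82 of 100 of 1.5-fold were found, beside 6 wrong calls in 15647 genes. These counts were drawn from the fitted means and the dispersion of each gene, and held no libraries that stand apart. They do not give the share of shifts found in the real lungs, where Eln and Mmp12, at about 2-fold, did not pass with all lung groups. limma 3.58.1, DESeq2 1.42.0, the deposited log2 values and other settings were alternatives. Named genes are the 12 largest rises and falls, 20 anchor genes, and up to 5 list members by p with up to 3 of the opposite direction; others are marked as chosen after their values were seen. Some named genes are not reported here. The members and lists were chosen with earlier results of these data known. Depth ran from 17.07 to 26.95 M counts in the day 21 lung groups and from 4.788 to 38.34 M in all 93 lung libraries. Depth limits genes of few CPM most.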

Additional observations from a re-analysis of the deposited data

Results flagged for a closer look

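Single libraries lay far from the rest of their group for 23 of 272 gene and group pairs tested, where 13.6 would be expected at 1 in 20. In vehicle replicate 2, Dbp was highest at 33.5 CPM, while Arntl at 16.4 CPM and Tgfbi at 101.3 CPM were lowest. In vehicle replicate 3, Tent5c (169 CPM), Bpgm (78.2 CPM) and Fech (73.0 CPM) were highest, and in SB525334 replicate 6 Bnip3l was (324.5 CPM). SB525334 replicate 3 was lowest for 5 macrophage genes, Pla2g7 (33.2 CPM), Mmp12 (143 CPM), Lpl (345.7 CPM), Capg (73.6 CPM) and Lgals3 (208 CPM), and highest for Cyp2b10 (442 CPM). SB525334 replicate 2 was highest for Ugt1a6a (68.0 CPM) and Cyp1a1 (85.0 CPM) and lowest for Igfbp7 (243 CPM) and Skil (194 CPM). Vehicle replicate 5 was lowest for Igfbp7 (312 CPM), Cd34 (253 CPM), Adam12 (7.91 CPM) and Ccn2 (206.5 CPM). Vehicle replicate 1 was lowest for Skil (170.7 CPM), and SB525334 replicate 8 for Disp2 (18.4 CPM).

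The effect of SB525334 differed between skin and lung by the test of the difference. Skin minus lung, in log2 units, the value was -0.43 for Flvcr1, -0.35 for Zfp346, -0.66 for Fbxo32, -1.27 for Tent5c, -0.71 for Fech and -1.75 for Galnt9, so these 6 had the higher value in lung. The value was 0.78 for Trp53i11. Of genes described that had no call in lung, Fmo2 (-1.09), Aox3 (-1.24) and Inmt (-2.78) also differed. In lung the effect on Rflna was 0.96 higher on day 28 than on day 21.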

How the results depend on the processing

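All 63 genes kept their direction under every alternative tried. These fits used the libraries by which the genes were chosen, or parts of them, so this is no independent check. How many passed did not hold as well, and no cause was tested. Counts of all, higher and lower genes were 891, 402 and 489 with the 2 groups alone. Without the 18 libraries they were 353, 196 and 157, and without the 4 libraries 15, 5 and 10. With limma voom they were 1319, 787 and 532, with DESeq2 121, 59 and 62, and on plate 1 alone 0, 0 and 0. On plate 1 alone 501 of 16765 genes had an unadjusted p below 0.05 in edgeR. Without the 4 libraries 687 of 15727 did. Both are smaller shares than the 0.05 expected where no gene differs. The 18 and the 4 libraries were chosen after the data were seen. Without the plate term 18 were higher, with the deposited log2 values 18, and on plate 2 alone 23 were lower. Replicate numbers did not pair the libraries (1 of 7 pairs correlated above 0.1, range -0.06 to 0.12); with the replicate block 41 passed, 17 of them higher and 40 of the 63 among them, and with the 2 groups alone 196, 81 higher and 115 lower. With the 2 groups alone and without the 4 libraries 229 passed.

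Leaving out each library in turn gave 38 (without vehicle replicate 7) to 84 genes (without vehicle replicate 5), 14 to 36 higher and 24 to 50 lower; without vehicle replicate 1 it was 40. With the 2 groups alone it gave 549 (without SB525334 replicate 2; 562 without vehicle replicate 4) to 1385 (without vehicle replicate 5).

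For the day 28 minus day 21 difference the count was 10 with 4 plate sections, 0 with the replicate block, 1 without the 18 libraries, 10 without the 4, 0 with limma voom, 0 with the deposited log2 values, 51 with DESeq2, and 15 to 29 leaving out a library. For skin minus lung it was 200 without the plate term. Of day 14 raised and lowered genes, 76 and 18 passed with the 2 groups alone, 36 raised with the replicate block there, 3 and 1 with the block in all lung groups, 0 and 0 on plate 1, 23 and 8 without the 18 libraries, 1 and 0 without the 4, and 119 and 33 with limma voom. Without the plate term 3 raised passed, on plate 2 alone 1 lowered, and with the deposited log2 values 5 lowered. Leaving out a library gave 2 to 6 raised and 1 to 2 lowered.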

Other observations

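Platelet genes were chosen after their values were seen, and none passed with all lung groups. Pf4, the platelet chemokine CXCL4, had 10.4 to 17.4 CPM with SB525334 and 6.38 to 9.09 CPM with vehicle, with no overlap (0.99 ± 0.34, edgeR adjusted p = 0.238, and 0.000231 with the 2 groups alone). Tubb1, the platelet beta tubulin, had 8.58 to 15.0 CPM against 4.76 to 7.98 CPM, again with no overlap (0.97 ± 0.27, edgeR adjusted p = 0.0936 and 0.00057). Gp9, a subunit of the von Willebrand factor receptor, had 1.93 to 3.50 CPM against 0.502 to 1.81 CPM (1.20 ± 0.35, edgeR adjusted p = 0.114 and 0.00539). Ppbp, Treml1 and Gp1bb had fold changes of 1.01, 0.99 and 0.94. With the 2 groups alone and without the 4 libraries high in red blood cell transcripts, Pf4, Tubb1 and Treml1 passed. Gp9, Ppbp and Gp1bb did not (edgeR adjusted p = 0.0683, 0.0535 and 0.151). On day 28 the fold changes were 1.01 for Pf4, 1.23 for Ppbp, 1.35 for Gp9 and 1.00 for Tubb1, with edgeR adjusted p of 0.048, 0.0111, 0.0133 and 0.0239. Of those day 28 libraries 6 of 8 with SB525334 and 4 of 7 with vehicle stand apart, as given above.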
